A study of Mus musculus with 24 samples.

Results

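The libraries described here come from the 8-week high-fat genotype experiment, in which the loss of Azin2 was examined in 2 adipose depots of the mouse. They were chosen by their labels: 16 of the 24 RNA-seq libraries of the series belong to this experiment, and no measured value was used to choose them. All were made from whole fat of male C57BL/6J mice that ate a diet with 60% of its energy as fat for 8 weeks. The groups were subcutaneous adipose tissue (SAT) of wild-type littermates (5 libraries), SAT of Azin2-/- mice (3 libraries), epigonadal adipose tissue (GAT) of wild-type littermates (4 libraries) and GAT of Azin2-/- mice (4 libraries). The comparison is the difference between depots, that is, the log2 fold change of Azin2-/- over wild type in GAT minus the same log2 fold change in SAT. The labels give neither the age of the mice nor the deleted part of Azin2, and they name the knockout without a cell type. They do not state that each library is a separate animal, so the p-values measure the spread between these libraries.

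Azin2 encodes antizyme inhibitor 2. Antizymes bind ornithine decarboxylase, the enzyme that makes putrescine at the start of polyamine synthesis, and send it for degradation. Antizyme inhibitors resemble ornithine decarboxylase without its activity and draw antizymes away from it, so they favour polyamine synthesis and uptake. SAT lies under the skin and GAT lies in the abdomen beside the epididymis under a mesothelial layer. On a high-fat diet the epigonadal depot is known for macrophages that gather around dying adipocytes, while the subcutaneous depot is known for its capacity to store lipid and to form thermogenic adipocytes.

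Azin2 itself (ENSMUSG00000028789, chromosome 4, 128930233 to 128962442, minus strand, GRCm38) was lower in the Azin2-/- libraries of both depots. Levels below are normalised CPM, the usual scaling of counts to the library total with the total adjusted by edgeR's library factors, and libraries are listed from replicate 1 upward within a group. Azin2 read 16.1, 24.9, 16.8, 25.0 and 17.9 normalised CPM in wild-type SAT and 11.7, 8.28 and 11.0 in Azin2-/- SAT. In wild-type GAT it read 25.2, 22.2, 24.7 and 24.7, and in Azin2-/- GAT 18.8, 12.4, 14.5 and 12.8. The genotypes did not overlap in either depot, and the highest knockout library was replicate 1 of Azin2-/- GAT. The log2 fold change was −0.96 (SE 0.19) in SAT and −0.73 (SE 0.17) in GAT, with Benjamini-Hochberg adjusted p = 0.103 and 0.0257 in edgeR's quasi-likelihood test over all 18033 genes tested. The difference between depots was 0.23 (SE 0.25, unadjusted p = 0.361), which is smaller than its standard error. Reads remained at this locus in every knockout library, from 215 to 715 raw counts.

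Library totals ran from 31.96 to 46.62 megareads counted to genes, and they differed between genotypes by less than their spread in each depot (SAT −2.58 megareads, two-sided exact permutation p = 0.536; GAT −1.40 megareads, exact permutation p = 0.543). Depot labels held in all 16 libraries: Tbx15, a subcutaneous transcription factor gene, read at least 16.6 CPM in SAT and at most 0.222 in GAT, and the mesothelial gene Wt1 at least 5.25 CPM in GAT and at most 0.0999 in SAT. Adipoq, the adipocyte hormone gene, was at 1330 CPM or more in each library. In SAT, replicate 2 of the knockout and replicate 3 of the wild type carried skeletal muscle transcripts summing to 76560 and 68600 CPM, against at most 279 CPM in the others, and both bear the same mark in the labels. In GAT, replicate 3 of the wild type carried epididymis transcripts summing to 7341 CPM, against at most 0.672 CPM elsewhere. Replicate 1 of Azin2-/- GAT stood nearer to the wild type than the other 3 knockout libraries in many genes below. Results that rest on these 4 libraries are given with and without them. The gene lists below were chosen with earlier results of these data known.

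With all 16 libraries, edgeR called 0 genes (0% of 18033) for a difference between depots at an adjusted p under 0.05, and the smallest adjusted p was 0.312. Without adjustment 2016 genes (11.2%) had p under 0.05, of which 1199 (6.65%) had the higher change in GAT and 817 (4.53%) the higher change in SAT. Within depots the calls were unequal. SAT gave 7 called genes (0.0388%), all higher in Azin2-/-, and GAT gave 1370 (7.6%), of which 996 (5.52%) were higher and 374 (2.07%) lower in Azin2-/-. That a gene passed in GAT and not in SAT is not a difference between depots, since the difference itself did not pass. DESeq2's Wald test on the same counts called 158 genes for the difference (0.876%), 114 higher and 44 lower, and limma-voom with library quality weights called 2718. Leaving out replicate 1 of Azin2-/- GAT gave 107 calls in edgeR (0.596% of 17946 genes), 93 higher (0.518%) and 14 lower (0.078%). Leaving out only the 2 muscle-rich SAT libraries gave 0 calls in edgeR, with a smallest adjusted p of 0.148.

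Over all 18033 genes the log2 fold changes of both depots had the same sign in 62.1%, and 10758 genes had the larger size in GAT. Of the 1370 genes called in GAT, 1125 (82.1%) had the same sign in SAT. Their median log2 fold change was 0.73 in GAT and 0.09 in SAT, which pools both directions. It was 0.99 in GAT and 0.17 in SAT for the 996 genes called higher in GAT. For the 374 called lower it was −0.80 and −0.27. These genes were chosen by their p in GAT, which favours a larger size there, so these medians do not measure a difference between depots. The mean effect, the average of both log2 fold changes, was called in 1315 genes (7.29%), 881 higher (4.89%) and 434 lower (2.41%). The share of the same sign among genes called in GAT rests on replicate 1 of Azin2-/- SAT. Without it 53.5% of the genes called in GAT had the same sign in SAT, against 53.9% of all genes, and the mean effect was called in 11 genes. The calls in GAT rest on 4 libraries, since leaving out replicate 2, 3 or 4 of Azin2-/- GAT or replicate 4 of wild-type GAT gave 0 calls in GAT in edgeR. In these 4 settings 3447 to 4020 genes still had an unadjusted p under 0.05, and the smallest adjusted p ran from 0.0557 to 0.075.

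**Figure D1:**
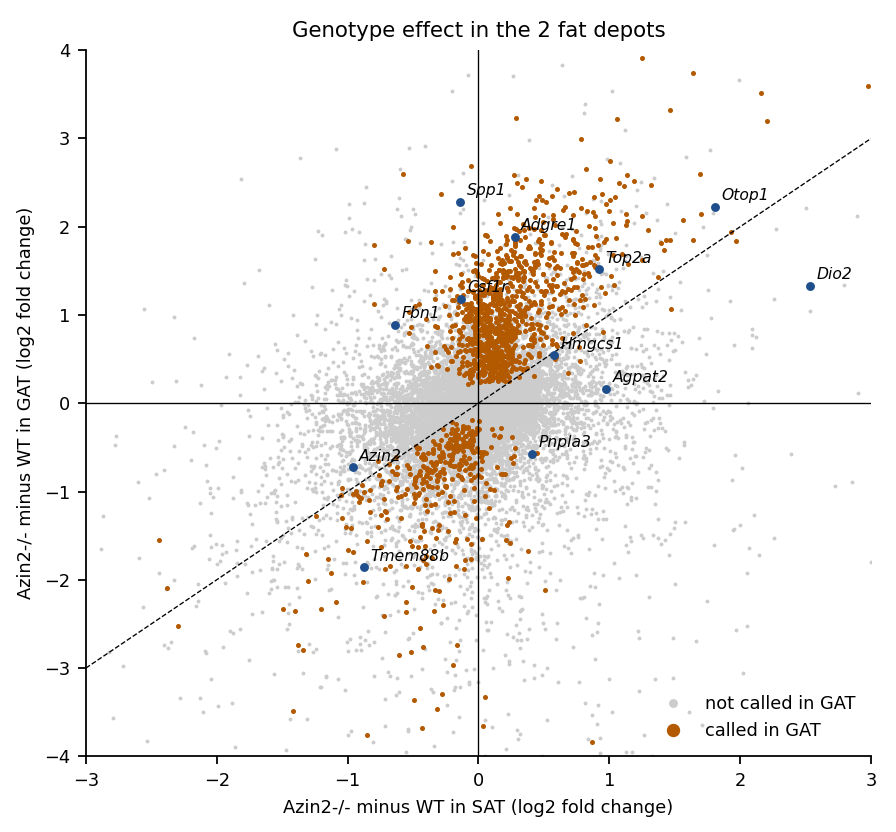
Log2 fold change of Azin2-/- over wild type in SAT (horizontal axis) and in GAT (vertical axis) for each tested gene, with the genes called in GAT in colour. Of the 18033 genes 97 lie outside the axes, and 1125 of the 1370 coloured genes have the same sign in SAT.

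Genes that rose on the mean of both depots with the smallest p included a gene of thyroid hormone activation, a taurine transporter and a proton channel. Dio2 (chromosome 12, 90724552 to 90738438, minus strand) encodes the deiodinase that turns thyroxine into active triiodothyronine. It read 0.637, 0.844, 0.663, 0.533 and 0.628 normalised CPM in wild-type SAT and 3.34, 4.66 and 3.55 in Azin2-/- SAT. In GAT it read 0.854, 0.602, 0.475 and 1.14 in the wild type and 1.08, 1.91, 2.59 and 2.18 in the knockout. All 3 knockout libraries were above all wild-type libraries in SAT, while in GAT replicate 1 of the knockout lay below the highest wild-type library. The log2 fold change was 2.53 (SE 0.30, adjusted p = 0.00968) in SAT, a 5.78-fold increase, and 1.33 (SE 0.30, adjusted p = 0.0223) in GAT, with a difference of −1.20 (SE 0.42, unadjusted p = 0.0126, adjusted p above the threshold in edgeR).

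Slc6a6, the taurine transporter gene, had the larger change in GAT. In SAT it read 146, 135, 119, 110 and 125 normalised CPM in the wild type and 222, 173 and 159 in the knockout. In GAT it read 118, 83.8, 87.7 and 74.2 against 161, 369, 307 and 299. The genotypes did not overlap in either depot. Its log2 fold change was 0.54 (SE 0.21) in SAT and 1.64 (SE 0.22) in GAT, with edgeR adjusted p = 0.0131 for the mean effect. Otop1, a proton channel gene of brown and beige fat, had log2 fold changes of 1.81 and 2.23 in SAT and GAT. In SAT it read 27.7, 25.6, 11.0, 19.5 and 27.9 normalised CPM in the wild type and 47.0, 130 and 57.5 in the knockout. The lowest and the highest of these are the 2 muscle-rich libraries, so the size of the SAT change rests in part on them. Alas1, the first enzyme of heme synthesis, had 0.68 and 0.35, and Uhrf1bp1 had 0.77 and 0.48.

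Azin2 was among the 5 genes of smallest p that fell on the mean of both depots, and 3 of the others changed by nearly equal amounts in SAT and GAT. Tmem159, which encodes a protein of lipid droplet formation, read 36.2, 33.5, 39.6, 40.5 and 46.1 normalised CPM in wild-type SAT against 23.0, 25.2 and 24.9 in the knockout, and 30.7, 42.8, 47.3 and 42.5 in wild-type GAT against 29.7, 23.5, 25.6 and 22.5. Groups did not overlap in either depot, and the log2 fold change was −0.69 in each (SE 0.14 in SAT and 0.13 in GAT). Kcns3, a modulatory potassium channel subunit, had −0.62 and −0.72 in SAT and GAT, and the interferon-induced membrane protein gene Ifitm1 had −0.76 and −0.81. Tmem88b had −0.88 in SAT and −1.86 in GAT. Across all genes, the groups of a depot did not overlap in 1266 genes in SAT (7.02%) and 2524 genes in GAT (14%), and 140 genes (0.776%) had groups that did not overlap in both depots in the same direction.

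The proliferation genes, a list of 25 genes of DNA replication and mitosis, were higher in Azin2-/- GAT and had smaller positive values in Azin2-/- SAT, where 0 of 25 were called. All 25 had positive log2 fold changes in SAT and in GAT, with medians of 0.62 and 1.41, while the medians over all genes were 0.01 and −0.03. In GAT 21 of 25 rose (5.52% of all genes), and 22 of 25 rose on the mean effect (4.89% of all genes). The median difference between depots was 0.76, and 4 of 25 had an unadjusted p under 0.05 for it, all higher in GAT, against 6.65% of all genes. Top2a (chromosome 11, 98992943 to 99024189, minus strand) encodes the topoisomerase that untangles sister chromosomes. It read 5.17, 8.6, 6.72, 6.67 and 4.54 normalised CPM in wild-type SAT and 16.3, 5.54 and 14.0 in the knockout. Levels in GAT were 12.7, 9.51, 10.7 and 7.34 against 13.3, 34.6, 33.8 and 33.8. The muscle-rich replicate 2 of Azin2-/- SAT lay within the wild type, and replicate 1 of Azin2-/- GAT lay just above its highest library. The log2 fold change was 0.92 (SE 0.35) in SAT and 1.52 (SE 0.35, edgeR adjusted p = 0.0232) in GAT, with a difference of 0.60 (SE 0.49, unadjusted p = 0.243).

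Other members followed the same order. Bub1, a mitotic checkpoint kinase gene, had log2 fold changes of 1.43 and 1.85 in SAT and GAT, and Cdk1, the kinase that starts mitosis, had 0.82 and 1.58. Pcna, the sliding clamp of DNA replication, had the smallest unadjusted p for the difference in the list, with 0.14 in SAT and 0.92 in GAT (difference 0.79, SE 0.23, unadjusted p = 0.0038). Without the 2 muscle-rich SAT libraries the list's medians were 0.96 in SAT and 1.40 in GAT, and their difference fell to 0.46. Without replicate 1 of Azin2-/- SAT the SAT median was 0.36 and 0 of 25 were called on the mean effect. Without replicate 1 of Azin2-/- GAT the GAT median was 1.61. In that setting 15 of 25 had an unadjusted p under 0.05 for the difference in the direction of GAT, against 1524 of all 17946 genes.

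The cholesterol genes had close medians in both depots. All 22 members were positive in SAT (21 of 22 without the muscle-rich replicate 2 of Azin2-/- SAT) and 20 of 22 in GAT. With all libraries the medians were 0.51 and 0.53 and the median difference was −0.02. On the mean effect 11 of 22 rose (4.89% of all genes) and 0 fell, among them Hmgcs1, Pmvk, Mvd, Lss, Cyp51, Msmo1, Nsdhl, Hsd17b7, Dhcr7 and Insig1. Hmgcs1 (chromosome 13, 119690379 to 119708260, plus strand), which makes the precursor of mevalonate, read 483, 499, 359, 386 and 404 normalised CPM in wild-type SAT and 718, 424 and 767 in the knockout. In GAT it read 467, 336, 272 and 347 against 458, 543, 562 and 507. The muscle-rich knockout library in SAT and replicate 1 of the knockout in GAT lay within the range of the wild type. Its log2 fold change was 0.58 (SE 0.19) in SAT and 0.54 (SE 0.19) in GAT, with edgeR adjusted p = 0.0294 for the mean effect.

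Nsdhl, a sterol dehydrogenase gene, had log2 fold changes of 0.81 and 0.49 in SAT and GAT, with groups that did not overlap in either depot. Dhcr7, the last step to cholesterol, had 0.74 and 1.00. In GAT 2 members were negative: Fdft1, squalene synthase, with 0.02 in SAT and −0.61 in GAT, where it fell (edgeR adjusted p = 0.0327), and Tm7sf2, a sterol reductase gene, with 0.49 and −0.24. The SAT value of Fdft1 rests on the muscle-rich knockout library, which read 82.8 normalised CPM. The other SAT knockout libraries read 44.8 and 49.3, against 53.2 to 66.1 in wild-type SAT. The GAT sign of Tm7sf2 rests on replicate 3 of the wild type, the library with epididymis transcripts. Tm7sf2 read 22.7 normalised CPM there, against 8.18 to 8.46 in the other wild-type GAT libraries. Every GAT knockout library lay above those others. Leaving out the library with epididymis transcripts gave medians of 0.50 and 0.60, with 21 of 22 members positive in GAT. In that setting 6 of 22 members were called higher on the mean effect, against 673 of all 17767 genes. Without replicate 1 of Azin2-/- SAT the medians were 0.37 and 0.53, and 0 of 22 were called on the mean effect.

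The promoters of 2 proliferation and 2 cholesterol genes are shown because nearly all tested members of their lists had positive log2 fold changes in both depots. Each is the 250 bases before the first listed RefSeq start of the gene in GRCm38.p6, given 5′ to 3′ on the gene's strand, with CCAAT or its reverse complement ATTGG in capitals.
Top2a, chr11:99024190-99024439, minus strand: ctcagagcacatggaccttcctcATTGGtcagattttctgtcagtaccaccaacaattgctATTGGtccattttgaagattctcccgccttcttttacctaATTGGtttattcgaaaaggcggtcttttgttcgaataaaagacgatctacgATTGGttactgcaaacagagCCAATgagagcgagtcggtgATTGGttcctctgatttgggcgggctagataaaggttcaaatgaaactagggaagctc
Birc5, chr11:117848987-117849236, plus strand: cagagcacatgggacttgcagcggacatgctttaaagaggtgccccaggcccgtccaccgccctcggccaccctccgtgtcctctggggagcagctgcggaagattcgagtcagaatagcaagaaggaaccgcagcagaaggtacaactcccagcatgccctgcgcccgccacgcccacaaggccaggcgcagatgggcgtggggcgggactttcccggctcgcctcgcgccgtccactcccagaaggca
Hmgcs1, chr13:119690101-119690350, plus strand: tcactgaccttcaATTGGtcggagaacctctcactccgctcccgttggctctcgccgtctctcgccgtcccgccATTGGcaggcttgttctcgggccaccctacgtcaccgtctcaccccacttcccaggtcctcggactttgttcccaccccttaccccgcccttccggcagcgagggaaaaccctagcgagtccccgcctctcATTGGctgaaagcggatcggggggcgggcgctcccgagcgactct
Mvd, chr8:122443423-122443672, minus strand: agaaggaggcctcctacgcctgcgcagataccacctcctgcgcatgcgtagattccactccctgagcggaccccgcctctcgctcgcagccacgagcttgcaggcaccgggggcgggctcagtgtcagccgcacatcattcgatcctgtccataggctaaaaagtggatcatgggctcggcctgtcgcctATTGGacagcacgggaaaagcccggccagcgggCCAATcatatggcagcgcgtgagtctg
The Top2a window held 6 such matches, that of Birc5 0, that of Hmgcs1 3 and that of Mvd 2. Birc5 encodes a protein of the chromosomal passenger complex and had log2 fold changes of 0.88 and 1.57 in SAT and GAT. Mvd, a mevalonate pathway decarboxylase, had 0.65 and 0.63.

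CCAAT on either strand was present in 19 of the 21 proliferation promoters with a window (90.5%) and in 15 of 16 cholesterol promoters (93.8%). It was present in 34.5% of all 27025 promoters listed. Of the macrophage list 5 of 12 (41.7%) held it, of the fatty acid synthesis list 9 of 17 (52.9%) and of the extracellular matrix list 3 of 13 (23.1%). In all 10 motifs were searched on both strands, chosen after the values were seen. TTTGAA was in 8 of 21 proliferation promoters (38.1%, all promoters 16.3%) and TTCGAA in 2 of 21 (all promoters 1.34%). TTCGAA was also in 1 of 16 cholesterol and 1 of 12 macrophage promoters. TCACNCCAC, which contains TCACCCCAC, was in 1 of 16 cholesterol promoters (all promoters 1.04%, and 0.466% for the second spelling). TCACNCCAC was also in 1 of 12 macrophage, 1 of 14 lipid-associated macrophage and 1 of 17 fatty acid synthesis promoters. GAGGAAGT, GGAGGAAG and AGAGGAAG overlap one another and were in 1, 2 and 2 of the 12 macrophage promoters (all promoters 2.44%, 4.45% and 3.64%). CANNTG was in 11 of 12 macrophage promoters (all promoters 66%) and TGACGTCA in 2 of 21 proliferation promoters (all promoters 1.62%). Apart from TCACCCCAC, each motif was also found in promoters of other lists. These matches describe the letters of the windows and were not tested as binding sites.

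Macrophage genes were higher in Azin2-/- GAT and nearly level in Azin2-/- SAT. Of the 18 macrophage genes 13 rose in GAT (5.52% of all genes) and 0 in SAT, with medians of 1.09 in GAT and −0.01 in SAT. The median difference was 1.16, and 15 of 18 had an unadjusted p under 0.05 for it in the direction of GAT, against 6.65% of all genes. In whole tissue, more cells of a type and more RNA per cell cannot be told apart. Adgre1 (chromosome 17, 57358691 to 57483527, plus strand), which encodes the macrophage surface protein F4/80, read 42.3, 51.9, 31.6, 38.1 and 35.0 normalised CPM in wild-type SAT and 76.1, 38.2 and 30.1 in the knockout. GAT levels were 77.4, 88.7, 67.8 and 58.7 against 116, 331, 351 and 285. In SAT the 3 knockout libraries lay above, within and below the range of the wild type, and in GAT all 4 knockout libraries lay above it. The log2 fold change was 0.28 (SE 0.33) in SAT and 1.89 (SE 0.33, edgeR adjusted p = 0.0151), or 3.70-fold, in GAT, with a difference of 1.61 (SE 0.47, unadjusted p = 0.00419).

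Csf1r, the receptor for the growth factor that macrophages need, was the list member with the smallest p for the difference. It read 119, 153, 103, 126 and 112 normalised CPM in wild-type SAT and 152, 97.0 and 85.7 in the knockout, and 182, 177, 135 and 163 in wild-type GAT against 228, 428, 439 and 394. The genotypes overlapped in SAT and not in GAT. Its difference was 1.32 (SE 0.31, unadjusted p = 0.000705). Fcgr1, a high-affinity Fc receptor gene, had 0.06 in SAT and 1.91 in GAT, and Mrc1, the mannose receptor gene, had −0.09 and 1.07. On the mean effect Cd163 and Timd4, genes of resident macrophages, fell, while Adgre1, Cd68, C1qb, Fcgr1 and Msr1 rose.

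Genes of lipid-associated macrophages, the cells that take up lipid in obese fat, were higher in GAT and less so in SAT. Of 19 genes 14 rose in GAT (5.52% of all genes) and 11 on the mean effect (4.89% of all genes), with medians of 1.56 in GAT and 0.52 in SAT. For the difference 8 of 19 had an unadjusted p under 0.05 in the direction of GAT, against 6.65% of all genes. Lipa, the lysosomal acid lipase gene, read 111, 120, 73.0, 101 and 95.8 normalised CPM in wild-type SAT and 195, 114 and 108 in the knockout, and 150, 196, 132 and 117 in wild-type GAT against 228, 649, 647 and 550. In SAT only replicate 1 of the knockout was above the wild type. The log2 fold changes of Lipa were 0.47 and 1.80, those of Cd9, a tetraspanin gene, −0.16 and 1.01, and those of Spp1, the osteopontin gene, −0.14 and 2.28. Ctsd, a lysosomal protease gene, had nearly equal changes of 0.56 and 0.72. Replicate 1 of Azin2-/- SAT had the highest score of this list in SAT, 7.22 as a mean of log2(normalised CPM + 0.5), against 5.90 to 6.54 in the other 7 SAT libraries, and without it the SAT median was 0.11 and 0 of 19 were called on the mean effect.

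**Figure D2:**
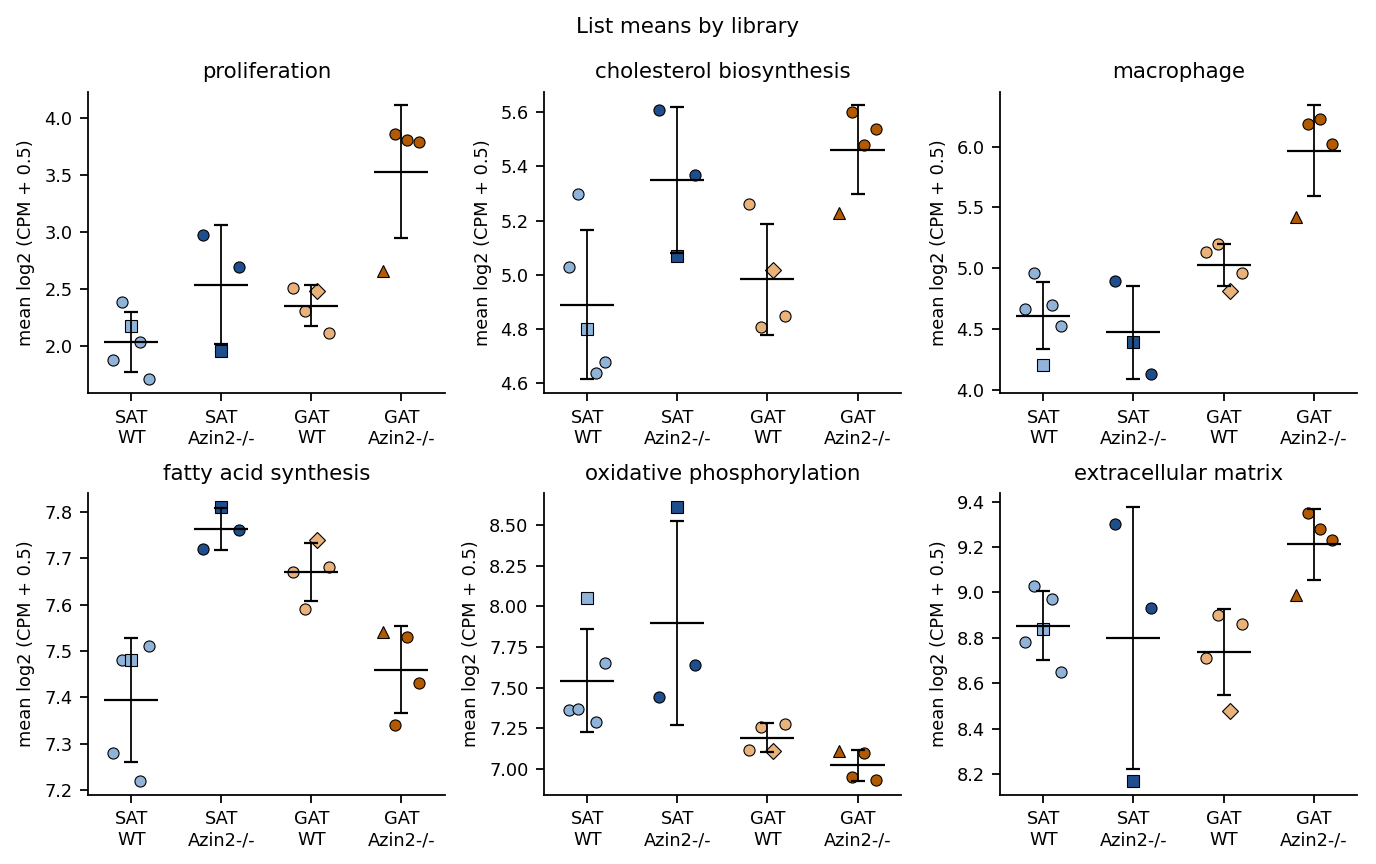
Score of selected gene lists, the mean of log2(normalised CPM + 0.5) over the list's tested genes, in each of the 16 libraries by depot and genotype, with bars for the mean ± SD. Squares mark the 2 muscle-rich SAT libraries, the triangle replicate 1 of Azin2-/- GAT and the diamond the GAT library with epididymis transcripts; the macrophage score of the triangle is 5.42 against 6.02 to 6.23 in the other 3 knockout libraries.

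Among the other immune lists, secreted inflammatory factors had medians of 0.21 in SAT and 0.95 in GAT. In GAT 4 of 23 genes were called higher (Ccl3, Spp1, Tgfb1 and Hgf), against 5.52% of all genes. Ccl2, the chemokine gene that draws monocytes, read 12.1, 18.8, 4.18, 4.80 and 4.03 normalised CPM in wild-type SAT against 32.3, 9.01 and 8.95, and 32.2, 17.3, 7.44 and 8.07 in wild-type GAT against 31.7, 66.1, 52.8 and 65.9. The groups overlapped in both depots. Its log2 fold changes were 0.93 and 1.73, and neither passed (edgeR adjusted p = 0.612 and 0.103). Genes of antigen presentation by MHC class II had medians of 0.04 and 0.59, and Ciita, their master regulator, and Cd40, a costimulatory receptor, rose in GAT by 0.96 and 0.95 on the log2 scale. B cell genes had negative medians in both depots, −0.60 in SAT and −1.56 in GAT. In GAT Ms4a1 was the only gene of 15 called, and it fell, against 2.07% of all genes. The SAT sign rests on replicate 4 of wild-type SAT, since without it the SAT median was 0.10 with 9 of 15 positive, and the median difference ran from −1.44 to −0.18 over single libraries left out. Mast cell genes were negative in SAT for 12 of 12 (median −0.97) and had a median of −0.01 in GAT, with 0 of 12 called in edgeR and 0 of 12 with an unadjusted p under 0.05 for the difference. Without replicate 5 of wild-type SAT their SAT median was −0.47.

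The gene with the smallest p for the difference between depots was Fbn1 (chromosome 2, 125300594 to 125507993, minus strand), which encodes fibrillin-1 of the matrix microfibrils. It read 194, 253, 148, 228 and 175 normalised CPM in wild-type SAT and 161, 116 and 107 in the knockout. In GAT it read 153, 217, 161 and 205 against 289, 418, 297 and 354. The SAT knockout was lower apart from replicate 1, which lay within the wild type, and the GAT groups did not overlap. The log2 fold change was −0.64 (SE 0.20) in SAT and 0.88 (SE 0.19, edgeR adjusted p = 0.0198) in GAT, with a difference of 1.52 (SE 0.27, unadjusted p = 6.13e-05, adjusted p = 0.312).

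The next genes by p on the side of GAT had opposite signs in the depots as well. Il1rl2 (chromosome 1, 40324610 to 40367562, plus strand), which encodes the receptor for interleukin-36, read 18.8, 17.8, 19.5, 13.0 and 22.3 normalised CPM in wild-type SAT against 15.8, 10.4 and 11.8, and 7.77, 6.55, 6.08 and 5.92 in wild-type GAT against 9.55, 13.5, 11.3 and 11.4. The genotypes overlapped in SAT and not in GAT, and the log2 fold changes were −0.53 and 0.79 (difference 1.32, SE 0.25, unadjusted p = 8.86e-05). Olfml2b, a secreted olfactomedin-domain protein gene, had −0.57 and 0.47, Osbpl3, of the oxysterol-binding protein family, −0.33 and 1.19, and Cep152, which is needed to copy centrioles, −0.31 and 0.42. All 5 had an adjusted p of 0.312 for the difference.

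On the side of SAT, Hist1h2be, a histone H2B gene, had the smallest p. It read 13.2, 13.9, 21.7, 16.1 and 16.1 normalised CPM in wild-type SAT and 22.7, 22.5 and 21.2 in the knockout, and 20.9, 25.6, 30.2 and 25.2 in wild-type GAT against 17.1, 16.9, 16.6 and 18.5. The SAT groups overlapped through 1 library, the muscle-rich wild type, and the GAT groups did not overlap. The log2 fold changes were 0.45 and −0.56 (difference −1.01, SE 0.20, unadjusted p = 0.000149, adjusted p = 0.312). Clustered histone genes are near copies of one another, so the assignment of its reads is uncertain. Mpv17l2, a mitochondrial protein gene, had log2 fold changes of 0.30 in SAT and −0.18 in GAT, Ephb6, an ephrin receptor gene, 0.17 and −0.81, Tmem45b 0.65 and −0.48, and Gde1, a phosphodiesterase gene, 0.28 and −0.51.

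Extracellular matrix genes had medians of 0.09 in SAT and 0.53 in GAT. In GAT 4 of 21 rose, namely Col1a1, Col3a1, Fbn1 and Lox, against 5.52% of all genes. For the difference 4 of 21 had an unadjusted p under 0.05 in the direction of GAT, against 6.65% of all genes. The GAT count was 11 without the muscle-rich replicate 2 of Azin2-/- SAT and 0 without replicate 2, 3 or 4 of Azin2-/- GAT or replicate 4 of wild-type GAT, and it was 1 without replicate 2 or 3 of the latter. Fn1, the fibronectin gene, read 387, 565, 370, 488 and 339 normalised CPM in wild-type SAT and 338, 243 and 204 in the knockout, and 738, 674, 411 and 687 in wild-type GAT against 806, 975, 1010 and 841. Every knockout library lay below the wild type in SAT and above it in GAT. The log2 fold changes were −0.72 (SE 0.22) and 0.54 (SE 0.21), with a difference of 1.25 (SE 0.30, unadjusted p = 0.000907). For Col1a1, a chain of type I collagen, replicate 1 of Azin2-/- SAT read 2080 normalised CPM against 659 and 1090 in the other knockout libraries, and the log2 fold changes were 0.05 and 1.12. Without the 2 muscle-rich libraries the list's SAT median was 0.37, with a median difference of 0.10, and without replicate 1 of Azin2-/- SAT it was −0.12, with a difference of 0.66.

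Progenitor and growth factor genes of the stroma had smaller differences. Among 18 adipose progenitor genes the medians were −0.14 and −0.04. For the difference 3 had an unadjusted p under 0.05 in the direction of GAT, against 6.65% of all genes. Wnt2, a secreted Wnt ligand gene, read 3.66, 3.48, 4.55, 4.43 and 6.55 normalised CPM in wild-type SAT and 2.98, 1.39 and 1.27 in the knockout, a log2 change of −1.27 that did not pass (adjusted p = 0.197 in edgeR), against 0.53 in GAT. Pdgfrb and Pdgfra, the receptors for platelet-derived growth factor, had −0.01 and −0.43 in SAT and 0.53 and 0.11 in GAT. Of 19 tested genes of the TGF-beta, BMP and activin family, Gdf10 had −1.06 in SAT and 0.13 in GAT and Bmp2 had −0.63 and 0.09, and the list's medians were −0.24 and 0.02. Dpp4, Gsn and Bmp7 fell on the mean effect, while Lum and Tgfb1 rose.

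In 14 genes (0.0776%) the genotypes did not overlap in either depot and the directions were opposite, against 140 genes (0.776%) with the same direction. With so few libraries per group, some genes separate this way by chance, and whether 14 exceeds that number was not tested. Some margins were narrow: in SAT, Fn1 read at most 338 normalised CPM in the knockout and at least 339 in the wild type. In 11 of them the knockout was lower in SAT and higher in GAT: Cadm3, Lama2, Igfbp3, Rnaseh1, Col14a1, Fn1, Ugdh, Tgfbi, Cep152, Gcnt4 and Cc2d2b. The 3 others, Lman2, Pla2g12a and Pigo, were higher in SAT and lower in GAT. Col14a1, a fibril-associated collagen gene, read 43.6, 42.8, 44.2, 66.7 and 50.8 normalised CPM in wild-type SAT and 39.9, 28.0 and 22.6 in the knockout, and 58.9, 72.7, 44.4 and 76.5 in wild-type GAT against 88.8, 124, 96.2 and 94.8. The log2 fold changes were −0.72 and 0.68, with an unadjusted p for the difference of 0.000327. Lama2, a laminin chain gene, had −0.42 and 0.35, Tgfbi, a matrix protein gene, −0.36 and 0.41, and Ugdh, which makes the sugar for hyaluronan and proteoglycans, −0.42 and 0.23. The other changes in this set were as small as −0.17 and 0.11 in Rnaseh1.

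**Figure D3:**
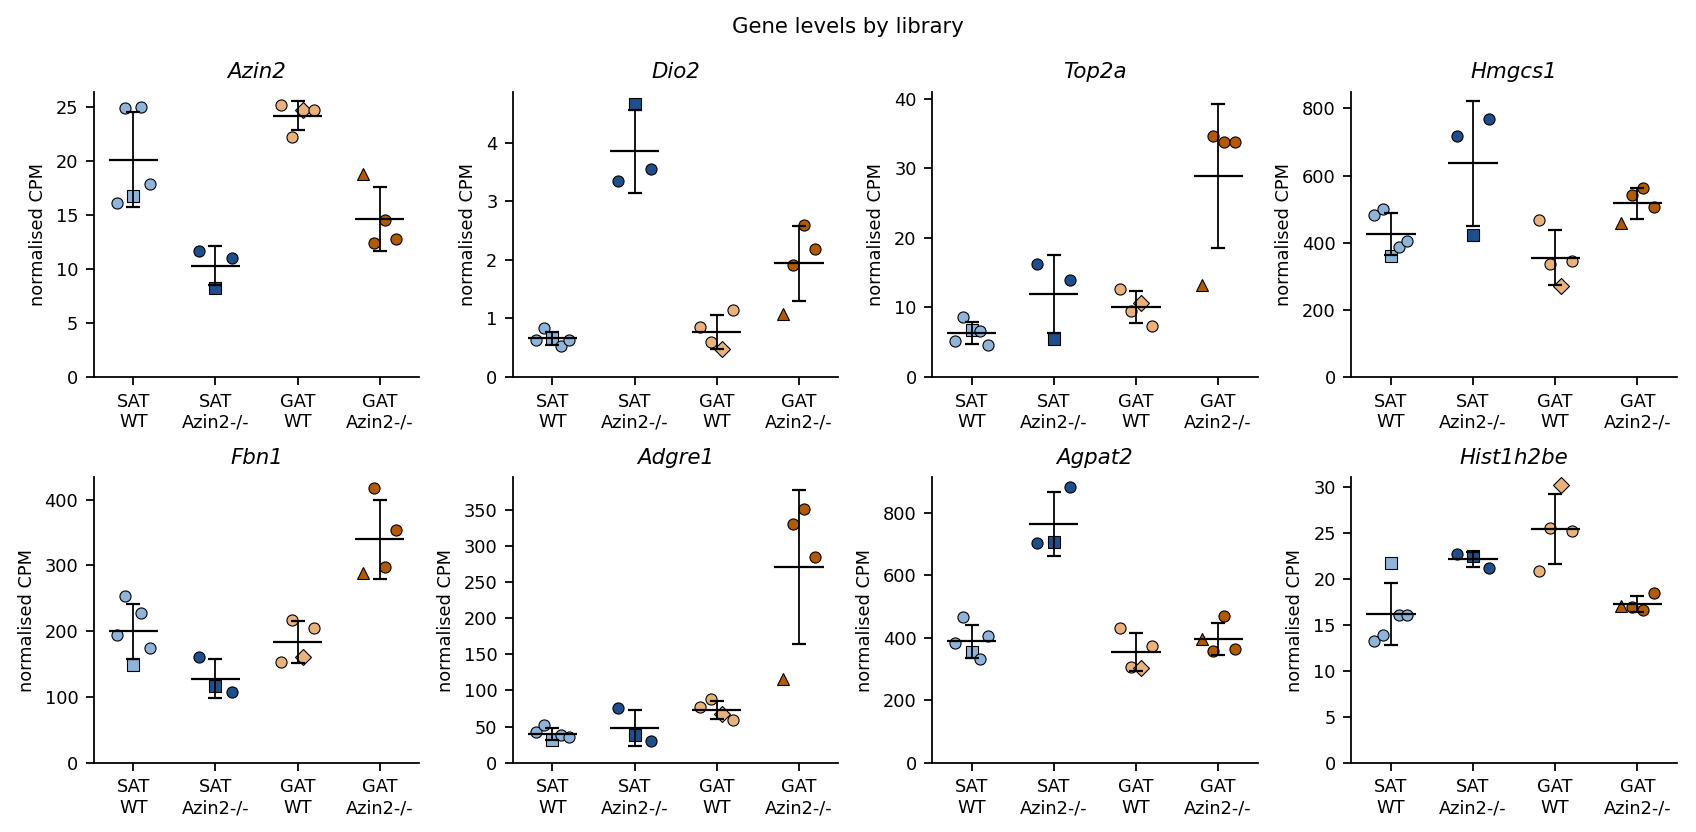
Normalised CPM of 8 genes in each of the 16 libraries by depot and genotype, with bars for the mean ± SD and the same marker shapes as in the plot of list scores. Dio2 is higher in the knockout of both depots, Adgre1 in GAT, and Fbn1 lies lower in SAT and higher in GAT.

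Fatty acid synthesis genes had mostly positive values in Azin2-/- SAT and level or negative ones in Azin2-/- GAT. In SAT 18 of 20 were positive and in GAT 9 of 20, with medians of 0.37 and −0.10 and a median difference of −0.63. In edgeR 1 of 20 was called in SAT and 0 for the difference. Without the 2 muscle-rich SAT libraries 14 of 20 were positive in SAT, and 15 of 20 had the same sign in both depots, against 11 with all libraries. For the difference, 11 of 20 had an unadjusted p under 0.05 in the direction of SAT (all genes 4.53%): Pnpla3, Acss2, Srebf1, Thrsp, Acaca, Acly, Elovl6, Me1, Fasn, Tkt and Slc25a1. The list's score ran from 7.72 to 7.81 in Azin2-/- SAT against 7.22 to 7.51 in the wild type, and from 7.34 to 7.54 in Azin2-/- GAT against 7.59 to 7.74, so the genotypes were apart in both depots and in opposite directions. Over the alternatives tried, the median difference stayed between −0.70 and −0.54.

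Pnpla3, an acyltransferase and lipase gene that responds to feeding, had the smallest p of the list. It read 393, 490, 525, 451 and 625 normalised CPM in wild-type SAT and 618, 586 and 770 in the knockout, and 571, 446, 434 and 512 in wild-type GAT against 325, 263, 417 and 312. The genotypes overlapped in SAT through the 1 highest wild-type library and did not overlap in GAT. The log2 fold changes were 0.41 (SE 0.17) and −0.58 (SE 0.16, edgeR adjusted p = 0.0448), with a difference of −0.98 (SE 0.23, unadjusted p = 0.000754). Scd1 and Thrsp fell in GAT as well, while Acss2, Me1 and Slc25a1 rose on the mean effect. Srebf1, the transcription factor gene of this pathway, had 0.42 in SAT and −0.19 in GAT.

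Acss2 and Agpat2 were 2 of the 7 genes called in SAT. Acss2, which makes acetyl-CoA from acetate, read 70.4, 79.2, 103, 64.5 and 81.8 normalised CPM in wild-type SAT and 200, 153 and 169 in the knockout, a 2.18-fold increase (log2 1.12, SE 0.18, adjusted p = 0.0468 in edgeR). The GAT libraries read 135, 131, 91.5 and 127 against 112, 117, 181 and 137 (log2 0.17). Agpat2 (chromosome 2, 26593057 to 26604417, minus strand), an acyltransferase of triglyceride synthesis, read 384, 467, 353, 332 and 406 in wild-type SAT and 702, 705 and 883 in the knockout. In GAT it read 432, 307, 303 and 373 against 394, 357, 468 and 363, so that the knockout stood apart in SAT alone by these ranges. Its log2 fold changes were 0.98 (SE 0.14, adjusted p = 0.0468 in edgeR) and 0.16, with a difference of −0.81 (SE 0.20, unadjusted p = 0.00122). The other 5, Ncan, Dio2, Alas1, Uhrf1bp1 and Krt79, had the same sign in GAT too. Ncan, a proteoglycan gene, had 1.5 and 0.80, and Krt79, a keratin gene, 1.60 and 0.19.

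Triglyceride synthesis genes followed fatty acid synthesis, with medians of 0.29 and −0.19, and 6 of 14 had an unadjusted p under 0.05 for the difference in the direction of SAT (4.53% of all genes). Agpat2, Lpin2 and Gpd1 rose on the mean effect, and Lpin2 rose in GAT. Lpin1, a phosphatidate phosphatase gene, had log2 fold changes of 0.34 and −0.22. Without the 2 muscle-rich SAT libraries the medians were 0.31 and −0.20 for triglyceride synthesis and 0.35 and −0.11 for fatty acid synthesis. In that setting 9 of 20 fatty acid synthesis genes had an unadjusted p under 0.05 for the difference, against 1815 of all 18565 genes.

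Mitochondrial lists also had higher medians in SAT than in GAT, and their SAT medians were smaller without the muscle-rich libraries. Fatty acid oxidation genes had medians of 0.47 in SAT and −0.05 in GAT, and oxidative phosphorylation genes 0.42 and −0.18, the latter positive for 21 of 21 in SAT and 1 of 21 in GAT. Without the 2 muscle-rich SAT libraries the SAT medians were 0.27 and 0.10, and the differences −0.25 and −0.28 in place of −0.51 and −0.58. Cpt2, the inner-membrane carnitine acyltransferase gene, read 117, 123, 154, 118 and 180 normalised CPM in wild-type SAT and 174, 284 and 222 in the knockout, with the highest value in the muscle-rich library. In GAT it read 103, 103, 84.8 and 129 against 95, 93.7, 109 and 92.7. The log2 fold changes were 0.71 and −0.11 (difference −0.82, SE 0.24, unadjusted p = 0.00434). In edgeR 0 members of either list were called in SAT, in GAT or on the mean effect. For the difference 6 of 20 and 4 of 21 had an unadjusted p under 0.05 in the direction of SAT, against 4.53% of all genes.

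Glycogen genes had medians of 0.49 and −0.17, and without the 2 muscle-rich libraries −0.01 and −0.18. Pygb and Pygl, which release glucose from glycogen, fell in GAT by 0.65 and 0.51 on the log2 scale and had 0.03 and −0.05 in SAT, while Gys2, a glycogen synthase gene, rose in GAT. For Pygb the GAT knockout read 364, 193, 198 and 196 normalised CPM against 369, 370, 305 and 449 in the wild type, and its replicate 1 lay among the wild-type libraries. Genes of branched-chain amino acid breakdown had medians of 0.10 in SAT and −0.36 in GAT, and 12 of 20 had an unadjusted p under 0.05 for the difference in the direction of SAT, against 4.53% of all genes. In GAT 3 of 20 fell, Ivd, Aldh6a1 and Acadsb, against 2.07% of all genes. Pcca, a propionyl-CoA carboxylase subunit gene, had 0.22 and −0.36. Without the 2 muscle-rich libraries the medians of this list were −0.07 and −0.37. For the difference 5 of 20 genes were then under an unadjusted p of 0.05, against 1815 of all 18565 genes.

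**Figure D4:**
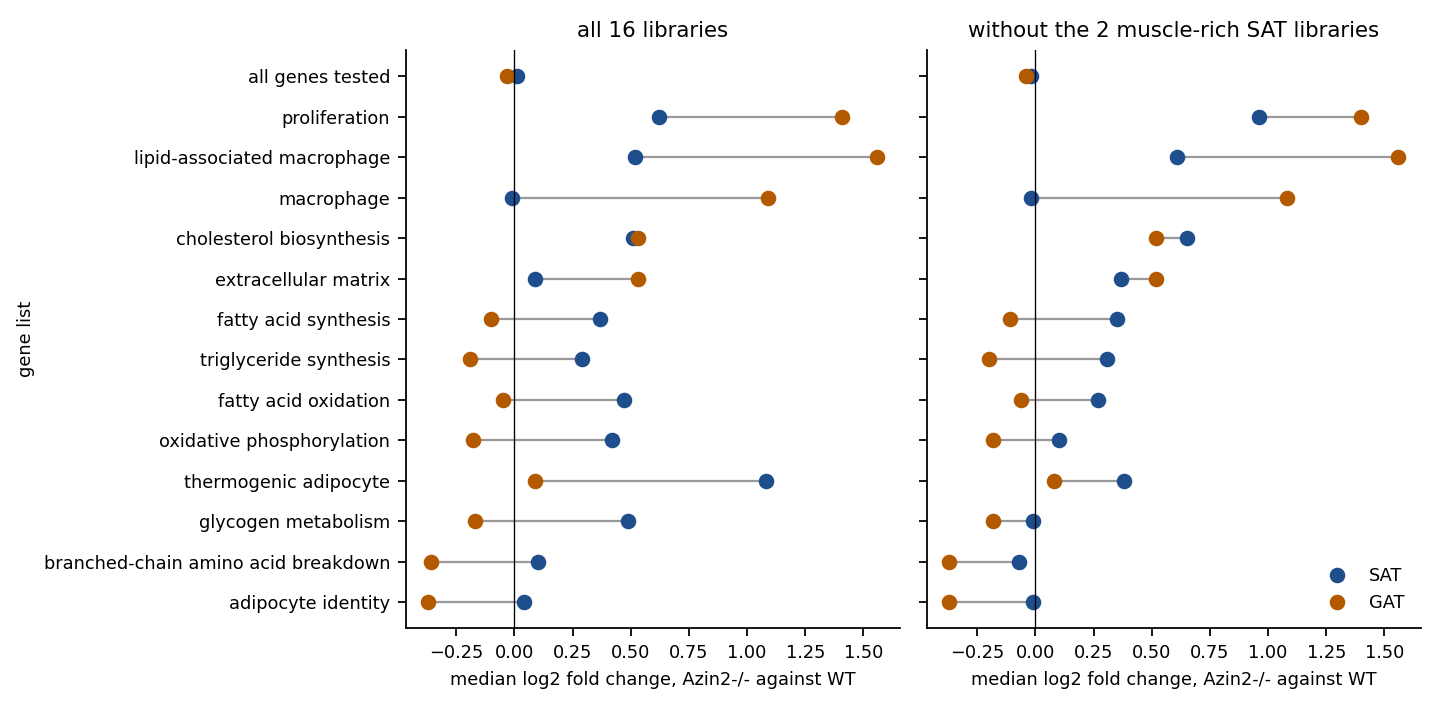
Median log2 fold change of Azin2-/- over wild type in SAT and in GAT for the gene lists, with all 16 libraries and without the 2 muscle-rich SAT libraries. The GAT medians of the macrophage and proliferation lists are 1.09 and 1.41 with all libraries. Only SAT libraries are left out in the second panel, so it is no check on the GAT medians. The mitochondrial and glycogen lists move toward 0 in SAT.

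Adipocyte identity genes were near level in SAT and lower in GAT, with medians of 0.04 and −0.37. In GAT 5 of 20 fell (2.07% of all genes), namely Adipoq, Pnpla2, Retn, Cfd and Adrb3. Adipoq, the adiponectin gene, read 2010, 1890, 2390, 2190 and 2700 normalised CPM in wild-type SAT against 2120, 1650 and 2300, and 2210, 2860, 1760 and 3200 in wild-type GAT against 2010, 1370, 1550 and 1320. The groups overlapped in both depots. Its log2 fold changes were −0.15 and −0.68 (GAT adjusted p = 0.0467 in edgeR), with a difference of −0.54 (SE 0.28, unadjusted p = 0.0724). Lep, the leptin gene, had 0.24 and 0.71, Slc2a4, the insulin-responsive glucose transporter gene, 0.28 and −0.77, and Lipe, the hormone-sensitive lipase gene, −0.04 and −0.47, and none of these 3 passed in either depot. The SAT value of Slc2a4 rests on the muscle-rich libraries. They read 451 normalised CPM in the knockout and 331 in the wild type, against 146 to 231 in the other SAT libraries. Of 18 insulin signalling genes Pik3r1, the regulatory subunit gene of phosphoinositide 3-kinase, fell in GAT by 0.39 on the log2 scale and had 0.26 in SAT, and Ptpn1, a phosphatase gene that acts on the insulin receptor, rose in GAT by 0.52.

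Thermogenic genes had a median of 1.08 in SAT and 0.09 in GAT, and 17 of 19 were positive in SAT. Dio2 and Otop1 were the members called in GAT and on the mean effect. Ucp1, the uncoupling protein gene of brown and beige fat, read 562 normalised CPM in the muscle-rich replicate 2 of Azin2-/- SAT and at most 3.19 in the other SAT libraries. Cidea, a lipid droplet protein gene of such fat, read 11.6, 270 and 34.1 in Azin2-/- SAT against 12.9, 9.73, 9.94, 17.2 and 29.9, again with the high value in that library. Without the 2 muscle-rich libraries the SAT median was 0.38 and the median difference −0.14 in place of −0.67. Of 6 tested genes of the creatine cycle 3 rose in GAT (5.52% of all genes) and the other 3 had negative values there, with list medians of 0.12 in SAT and 0.34 in GAT. Gatm, which makes the precursor of creatine, read 12.1, 29.8, 30.7 and 23.3 normalised CPM in Azin2-/- GAT against 12.0, 9.53, 10.5 and 7.56. Its log2 fold changes were −0.33 in SAT and 1.28 in GAT (difference 1.60, SE 0.41, unadjusted p = 0.00158), and Ckb, brain creatine kinase, and Slc6a8, the creatine transporter gene, also rose in GAT. Gamt, which completes creatine synthesis, had 0.27 in SAT and −0.33 in GAT, with a difference in the other direction (−0.60, SE 0.27, unadjusted p = 0.0452).

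In the pathway of Azin2, a list of 26 polyamine genes of which 24 were tested, most members changed little in either depot, with medians of 0.15 and 0.13. Odc1, ornithine decarboxylase, had log2 fold changes of 0.21 and −0.07, and Sat1, the polyamine acetylase gene, −0.02 and −0.23, both with a wild-type library far from its group. Azin1, the other antizyme inhibitor gene, rose in GAT and on the mean effect: it read 77.9, 81.2, 72.7, 63.6 and 71.5 normalised CPM in wild-type SAT against 93.2, 102 and 83.6, and 98.2, 86.5, 87.5 and 79.2 in wild-type GAT against 92.5, 129, 123 and 114. Its log2 fold changes were 0.34 and 0.38, with a difference of 0.04 (SE 0.16). Atp13a2, a lysosomal polyamine exporter gene, differed most by p. It read 70.6, 73.9, 75.4, 71.1 and 72.4 in wild-type SAT against 86.0, 69.9 and 64.8, and 79.5, 80.4, 67.5 and 75.3 in wild-type GAT against 91.6, 171, 161 and 156. The genotypes overlapped in SAT and not in GAT, where the increase was 1.92-fold (log2 0.94, SE 0.15, adjusted p = 0.0151 in edgeR), and the difference was 0.92 (SE 0.22, unadjusted p = 0.000832). Oaz3, an antizyme gene of the testis, was called lower in GAT through replicate 3 of the wild type, the library with epididymis transcripts, which read 9.25 normalised CPM against 0.146 to 0.778 in the other 3.

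Genes of acetyl-CoA supply and histone acetylation had medians of 0.01 in both depots. Acss2 and Slc25a1, the mitochondrial citrate carrier gene, rose on the mean effect, and Acly, ATP citrate lyase, had 0.54 in SAT and 0.05 in GAT. Among 21 p53 targets and cell cycle inhibitors the medians were 0.14 and 0.16. Cdkn1a, the p21 gene, had 0.18 and 0.45 and Cdkn2a 1.05 and 0.56, and neither passed in a depot. Mdm2, Gdf15 and Sesn1 rose in GAT. Sesn1 and Sesn2, stress-responsive sestrin genes, lay on opposite sides, with −0.24 and 0.39 for Sesn1 and 0.26 and −0.42 for Sesn2 in SAT and GAT (unadjusted p for the difference 0.00119 and 0.00205).

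Mesothelial genes had a negative median in Azin2-/- GAT, but their sums overlapped between genotypes through replicate 1 of the wild type. The 10 genes summed to 79.5, 576, 651 and 600 CPM in wild-type GAT and to 190, 164, 108 and 38.6 CPM in the knockout, and to at most 5.64 CPM in any SAT library. With all libraries 0 of the 10 were called in edgeR. Without replicate 1 of wild-type GAT, the lowest wild-type library, 8 of 10 were called lower in GAT and 2 of 10 on the mean effect. In that setting 852 of all 17974 genes were called lower in GAT, and 793 lower on the mean effect. With all libraries the GAT median of the mesothelial genes was −1.79. For the difference 1 of 10 had an unadjusted p under 0.05, against 11.2% of all genes. Wt1, a transcription factor gene of mesothelium, read 10.0, 26.0, 13.7 and 29.3 normalised CPM in wild-type GAT and 9.60, 8.05, 8.27 and 5.22 in the knockout, while 3 of 5 wild-type SAT libraries were at 0. The part of mesothelium in the GAT values above was not tested.

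Leaving out replicate 1 of Azin2-/- GAT gave the 107 calls named at the start. Of these, 102 had the larger size in GAT, 96 had a log2 fold change under 0.5 in size in SAT, and the signs in the depots were opposite in 64 and the same in 43. All 107 had the same direction of the difference with all 16 libraries, 106 had an unadjusted p under 0.05 there, and DESeq2 called 59 with all 16 libraries. These fits share all libraries but that replicate, so the overlaps follow largely from the selection and are not independent support. Among the list members the 107 included Adgre1, Csf1r, Cd14 and Fcgr1 of macrophages, Lipa, Fbn1, Pcna, Gatm, Atp13a2, Sesn1 and Pygb. Other genes of this set were Tlr7, an RNA-sensing receptor gene, with log2 fold changes of −0.13 in SAT and 1.47 in GAT over all 16 libraries, P2rx7, an ATP-gated channel gene, with −0.09 and 0.97, and Axl, a receptor gene for the uptake of dead cells, with −0.39 and 0.65. St6galnac4, a sialyltransferase gene, had 0.23 and 0.93, and in it replicate 1 of Azin2-/- GAT read 22.6 normalised CPM against 39.4 in each of the other 3. Leaving out that library together with the 2 muscle-rich SAT libraries gave 68 calls, of which 47 were among the 107.

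**Figure D5:**
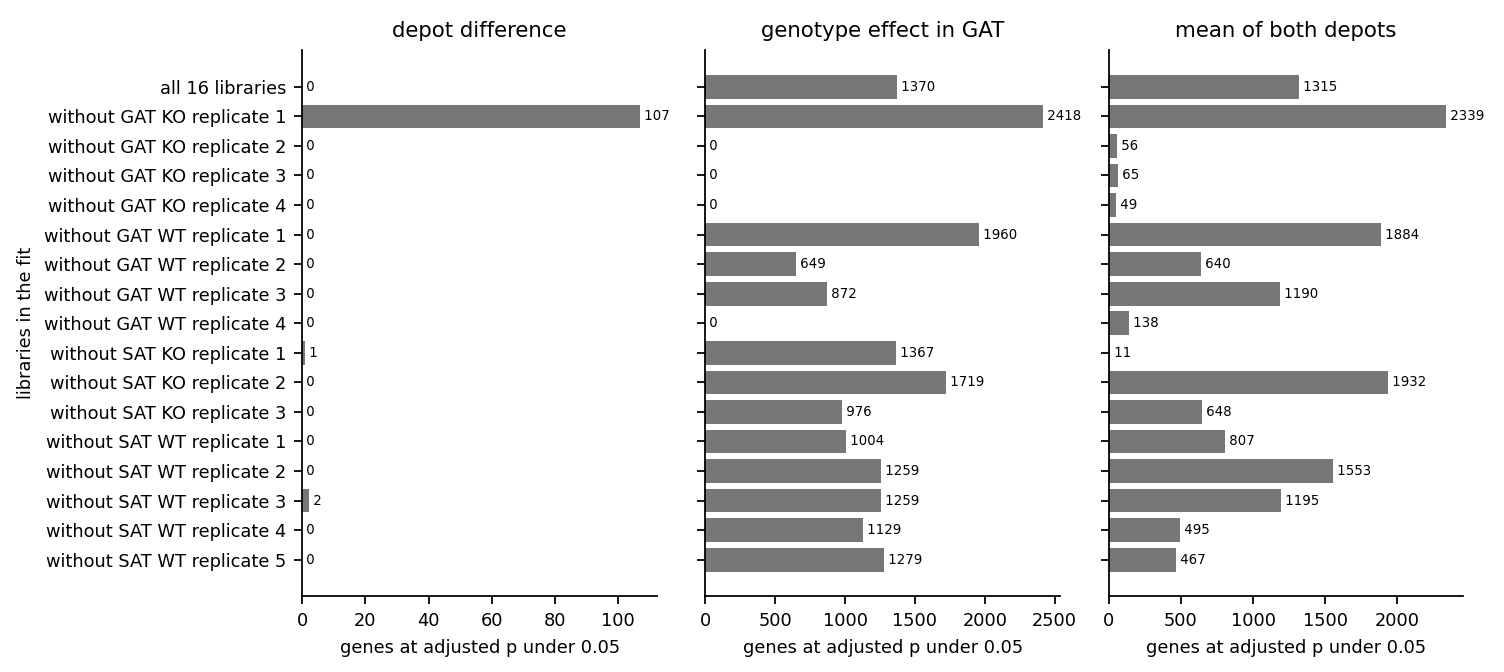
Number of genes called by edgeR for the difference between depots, in GAT and for the mean effect with all libraries and when each library is left out in turn. The count for the difference is 107 without replicate 1 of Azin2-/- GAT and at most 2 without any other single library, and the GAT count falls to 0 without any of 4 libraries.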

How the data were processed

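RNA was extracted from whole fat with the Nucleospin RNA kit and sequenced paired-end after library preparation with the TruSeq stranded Total RNA kit, per the labels' protocols. The deposited values are raw read counts per gene, which the authors made with cutadapt, STAR and HTSeq 0.6.1p1 on GRCm38/mm10, per the submitters' processing notes. How strand was handled in counting, and which annotation release was used, are not given in sources used here, and overlapping antisense genes could share reads. Symbols and coordinates came from GENCODE M21 by gene identifier (49326 of 49585 matched; the others held 0.0103% of counts), and promoters from RefSeq GRCm38.p6.

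The counts of the 16 libraries were fitted with edgeR 4.0.16 in R 4.3.3 (filterByExpr with a minimum count of 10 and total of 15, TMM, robust quasi-likelihood, a mean per group, 12 residual degrees of freedom). Depot effects, their difference and their mean are contrasts of this fit, with a gene called where its p, adjusted by Benjamini and Hochberg's method across the 18033 tested genes, was under 0.05. DESeq2 1.42.0 and limma 3.58.1 gave alternatives, and the procedure was tested on simulated data. No 2 libraries of a group agreed within sampling noise. Where the genotypes of a depot do not overlap, every knockout library lies above or below every wild-type library of it.

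The 16 libraries were taken by their labels, but the comparison and the gene lists were set with earlier results of these data known. Lists are described by counts and medians without a test. Genes were named by rule: Azin2, the 5 genes of smallest p per direction for the difference, 5 called per direction for the mean effect, up to 3 members of smallest p per described list, and Odc1, Azin1, Sat1, Cdkn1a, Cdkn2a, Lep, Adipoq, Ccl2, Adgre1, Dio2 and Ucp1. All other genes with values, such as Top2a, Birc5, Bub1, Cdk1, Hmgcs1, Mvd, Nsdhl, Dhcr7, Ctsd, Ncan, Krt79, the genes with opposite ranges and those called without 1 library, and the motifs were chosen after their values were seen. A mean of log2(normalised CPM + 0.5) scored a list in a library.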

Additional observations from a re-analysis of the deposited data

Results flagged for a closer look

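In 390 combinations of a named gene and a group of 4 or 5 libraries, 33 had 1 library outside the rest by Dixon's criterion (8.46%), and chance alone gives about 1 in 20. Some named genes, such as St6galnac4 and Gnpda1, were chosen because they were called without replicate 1 of Azin2-/- GAT. That choice favours flags in this library, so the share cannot be set against chance as a test. Values below are normalised CPM. The most flags, 11, lay in replicate 1 of Azin2-/- GAT. There Kcns3 read 44.8 (27 to 29.3 in the other 3), Ndufv1 139 (112 to 116), Gbe1 66.4 (52.1 to 53.1) and Pygb 364 (193 to 198), all above the rest. Below the rest were Ptpn1 at 68.5 (97.3 to 102), Mrc1 at 131 (211 to 223), Plk1 at 2.84 (8.49 to 8.89), Top2a at 13.3 (33.8 to 34.6), St6galnac4 at 22.6 (39.4 in each), Gnpda1 at 25.7 (41.0 to 43.4) and Letmd1 at 45.2 (46.5 to 46.7). Except for Letmd1, these values lay on the side of the wild-type libraries.

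In the wild-type GAT library with epididymis transcripts, replicate 3, Oaz3 read 9.25 (0.146 to 0.778), Tm7sf2 22.7 (8.18 to 8.46), Sat1 312 (88.5 to 103), Lman2 457 (274 to 279) and Pla2g12a 88.9 (69.7 to 72.0), while Acss2 read 91.5 (127 to 135) and Hgf 2.61 (4.44 to 4.77). The part of epididymis RNA in these values was not tested.

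In the muscle-rich wild-type SAT library, replicate 3, Tmem88b read 11.4 (5.88 to 7.46), Odc1 189 (60.6 to 92.4), Ctsd 567 (463 to 479) and Sat1 59.7 (71.8 to 75.7). The part of muscle RNA in these values was not tested. In replicate 5 of wild-type SAT, Alas1 read 280 (216 to 230), Tpsab1 1.2 (0.309 to 0.561), Mrgprb1 3.11 (0.412 to 1.16) and Pla2g12a 57.7 (65.7 to 67.7), of which Tpsab1 and Mrgprb1 are mast cell genes. Igkc, an immunoglobulin gene, read 11.7 in replicate 4 of wild-type SAT (2.28 to 2.68).

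In wild-type GAT, Azin2 read 22.2 in replicate 2 (24.7 to 25.2), Fcgr1 3.49 in replicate 4 (4.84 to 5.11), and Cd40 3.6 and Ighm 1090 in replicate 1 (2.16 to 2.26 and 753 to 798). In Azin2-/- GAT, Cpt2 read 109 in replicate 3 (92.7 to 95) and Rnaseh1 15.1 in replicate 2 (12.9 in each of the others).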

How the results depend on the processing

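In edgeR the count for the difference between depots was 0 without the 2 muscle-rich SAT libraries alone, where the smallest adjusted p was 0.148. It was also 0 with muscle as a covariate, with DESeq2 size factors, without the low-count filter, with all 24 libraries and without the epididymis library alone. With all 16 libraries the count was 0. It was 158 by DESeq2, 2718 by limma-voom with quality weights, 107 without replicate 1 of Azin2-/- GAT, 68 without it and the 2 muscle-rich SAT libraries, and 384 without these and the epididymis library (chosen after seeing the data), and 0 to 107 when 1 library was left out (1 without replicate 1 of Azin2-/- SAT, 2 without replicate 3 of wild-type SAT). In the same order the calls in SAT were 7 and then 290, 928, 10, 83 and 360, with 0 to 42 over single libraries (0 without replicate 1 or 4 of wild-type SAT or replicate 3 of Azin2-/- SAT, 42 without the muscle-rich knockout library). They were 1 without the low-count filter, 13 with all 24 libraries, 18 without the 2 muscle-rich libraries, 14 with muscle as a covariate and 16 without the epididymis library. In GAT they were 1370 and then 2640, 6750, 2418, 3312 and 3920, 703 without the filter, 872 without the epididymis library and 0 to 2418 over single libraries (0 without replicate 2, 3 or 4 of Azin2-/- GAT or replicate 4 of the wild type, 649 without replicate 2 of the wild type). For the mean effect they were 1315 and then 2740, 5478, 2339, 3106 and 3979, 510 without the filter, 2020 with the covariate and 11 to 2339 over single libraries (11 without replicate 1 of Azin2-/- SAT, 807 without replicate 1 of wild-type SAT, 49 to 65 without replicate 2, 3 or 4 of Azin2-/- GAT, 138 without replicate 4 of wild-type GAT, 467 to 648 without replicate 4 or 5 of wild-type SAT, 3 of Azin2-/- SAT or 2 of wild-type GAT).

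The same-sign share of genes called in GAT, 82.1%, was 78.5% by DESeq2, 64.3% by limma-voom with quality weights, 79.6% without replicate 1 of Azin2-/- GAT and 78.6% without all 4 libraries, and ran from 53.5% to 88% over single libraries, where settings with 0 calls gave no share. Library size in GAT (knockout minus wild type) ran from −3.44 to 0.717 megareads and reversed without replicate 1 of the wild type.

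Libraries of both depots share marks, but the labels do not say that a mark is 1 animal, and marks were not used as pairs. Deviations of same-mark libraries correlated at 0.344, −0.084, −0.029, 0.030 and −0.019, and those of different marks at −0.396 to 0.264. The values −0.084 and −0.029 involve a muscle-rich library and −0.019 the epididymis library, whose deviations carry RNA of other tissues. These correlations therefore cannot decide whether a mark is 1 animal. With the mark as a fixed replicate block the difference had 0 calls in edgeR (1768 genes at an unadjusted p under 0.05). As a random replicate block in limma-voom it gave 0 for the difference, 1 in SAT, 1421 in GAT and 292 for the mean effect with a same-sign share of 79.9%, and limma-voom with no replicate block gave 0, 1, 1376 and 796.

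Among named genes, uncalled differences near 0 changed sign: Azin2 to −0.0634 and Mvd to 0.11 with quality weights; Sat1 to 0.452 with quality weights, 0.0984 and 0.0285 with the fixed and random block, 0.0265 with no block in limma-voom, 0.456 without the epididymis library and 0.478 without 4 libraries; Hmgcs1 to 0.207, 0.0451 and 0.0357 with the fixed block, random block and no block, and 0.0091 without replicate 1 of Azin2-/- GAT; Mvd to 0.522 with the fixed block and 0.0833 without that library. Over single libraries the difference ran from −0.657 to 0.00376 for Odc1, −0.0244 to 0.123 for Azin1, −0.404 to 0.456 for Sat1, −0.259 to 0.121 for Hmgcs1 and −0.233 to 0.285 for Mvd. The causes were not tested. Depth limits genes near or under 1 normalised CPM, such as Gcnt4 and Cc2d2b, while the lowest Azin2 level, 8.28 normalised CPM in replicate 2 of Azin2-/- SAT, rests on 215 counts.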

Other observations

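Further lists gave few calls. Glycolysis genes were positive in both depots, 14 of 15 in SAT and 13 of 15 in GAT (medians 0.61 and 0.18), and Pfkl, Pgam1 and Eno1 rose on the mean effect. The glycolysis score of the 2 muscle-rich SAT libraries was 8.95 and 8.47, against 7.35 to 7.71 in the other SAT libraries. Of 18 circadian clock genes Dbp, Ciart and Nfil3 rose on the mean effect, and 0 were called in either depot alone in edgeR. Of 20 immediate early genes Junb and Atf3, transcription factor genes of the stress response, rose in GAT and on the mean effect.

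Endothelial genes had medians of −0.05 and −0.10 in SAT and GAT, with Cldn5, a tight junction gene, lower on the mean effect. T and NK cell genes had medians of −0.01 and −0.17, and Il7r, the interleukin-7 receptor gene, rose in GAT. Interferon response genes had medians of 0.05 and −0.09, with Oas1a the only gene of 20 called in GAT. Of 13 fat expansion genes Mest and Tph2 rose on the mean effect.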
